A study of Mus musculus with 27 samples.

Results

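Pou5f1 (encoding Oct4), Sox2, Klf4 and Myc are the 4 transcription factor genes that were delivered by retrovirus to turn mouse embryonic fibroblasts (MEFs) into pluripotent cells. They were chosen by name, as 4 of the 20156 genes in the deposited expression tables, and each has a copy in the genome of the cell as well as added cDNA copies in the infected cells. For each of them the RNA level in 6 RNA-seq libraries and the nucleosome calls within 20 kb either side of the transcription start site (TSS) in 21 MNase ChIP-seq libraries are described here. The groups are MEFs, partially reprogrammed cells (pre-iPSCs) and induced pluripotent stem cells (iPSCs), with 2 libraries each of RNA, H3, H3K4me3 and H3K27me3 and 1 library each of H3K9me3, called replicates 1 and 2 below.

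MEFs came from E13.5 embryos that were hemizygous for an Oct4-GFP transgenic allele and a Rosa26 allele. Their background was CBA/CaJ and C57BL/6J per the labels, with 129Sv/Jae dams per the study's methods. They were kept for at most 3 passages. Pre-iPSCs and iPSCs were made from such MEFs with retroviruses of the 4 factors, so the alleles named above apply to them too. Both were cultured for 6 passages on feeder layers of MEFs, inactivated with mitomycin C per the labels, with leukemia inhibitory factor. The study used 2 clones of pre-iPSCs and the iPSCs that correspond to them, and the sources used here do not say which clone gave which library. MNase digestion of MEFs differed in enzyme amount and time from that of the other cells, and this difference and the cell type cannot be told apart. The stretch of DNA in the Oct4-GFP allele and the integration sites of the retroviruses are not given in the sources used here.

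The nucleosome calls held 67414592 to 108211816 reads per H3 library, 12007350 to 13146349 per H3K4me3 library, 13224775 to 15222040 per H3K27me3 library and 12222861 to 12942154 per H3K9me3 library. In the RNA libraries 22.8% to 30.51% of genes were listed at 0. The MEF libraries of replicate 2 and the MEF library of H3K9me3 stood apart at Pou5f1, where they lacked a block of raised reads that the other libraries held. The promoter tests of Pou5f1 are therefore also given without either MEF replicate.

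Oct4, a POU-domain protein, and Sox2, an HMG-box protein, bind together to composite Oct-Sox DNA elements and keep up pluripotency genes and their own genes. Klf4 is a zinc-finger factor also present in fibroblasts and epithelia, and Myc is a bHLH factor that drives growth and pairs with Max. Retroviral vectors carry a coding sequence without introns or genomic flanks, and in pluripotent cells such vectors are usually silenced by a machinery of KRAB zinc-finger proteins, Trim28, Setdb1, H3K9me3 and DNA methylation.

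The 4 promoters differ in CpG content. The windows from 250 bp before to 50 bp after the TSS are shown because promoter marks are compared between the genes below. They are printed on the strand of each gene, from the mm9 reference genome, with the CpG dinucleotides in capitals. They are chr17:35642727-35643026 (plus strand, Pou5f1), chr3:34548677-34548976 (plus strand, Sox2), chr4:55545298-55545597 (minus strand, Klf4) and chr15:61816646-61816945 (plus strand, Myc).
Pou5f1 promoter: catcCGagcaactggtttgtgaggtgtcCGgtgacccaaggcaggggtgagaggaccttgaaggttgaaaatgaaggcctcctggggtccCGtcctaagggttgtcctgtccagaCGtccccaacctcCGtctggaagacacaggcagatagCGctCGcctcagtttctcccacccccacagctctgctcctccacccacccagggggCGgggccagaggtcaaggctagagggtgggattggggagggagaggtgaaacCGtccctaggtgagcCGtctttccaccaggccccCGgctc
Sox2 promoter: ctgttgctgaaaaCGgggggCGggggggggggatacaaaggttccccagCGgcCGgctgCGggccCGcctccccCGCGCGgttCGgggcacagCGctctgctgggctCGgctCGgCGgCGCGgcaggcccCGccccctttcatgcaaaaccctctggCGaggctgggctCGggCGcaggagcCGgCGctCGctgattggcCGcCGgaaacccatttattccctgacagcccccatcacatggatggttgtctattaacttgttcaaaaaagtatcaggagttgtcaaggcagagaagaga
Klf4 promoter: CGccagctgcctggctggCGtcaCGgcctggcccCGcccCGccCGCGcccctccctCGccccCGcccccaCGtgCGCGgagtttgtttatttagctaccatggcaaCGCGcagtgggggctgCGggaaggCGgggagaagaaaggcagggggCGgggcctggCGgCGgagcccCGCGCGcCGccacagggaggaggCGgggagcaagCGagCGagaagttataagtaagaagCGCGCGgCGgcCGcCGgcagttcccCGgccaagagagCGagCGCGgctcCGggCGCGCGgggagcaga
Myc promoter: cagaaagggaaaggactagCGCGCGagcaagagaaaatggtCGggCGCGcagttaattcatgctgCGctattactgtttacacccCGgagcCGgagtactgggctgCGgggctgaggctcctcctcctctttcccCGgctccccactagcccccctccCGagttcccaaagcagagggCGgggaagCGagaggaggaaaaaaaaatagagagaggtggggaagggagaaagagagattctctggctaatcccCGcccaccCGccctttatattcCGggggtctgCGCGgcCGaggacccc

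The Pou5f1 window held 11 CpGs at 62.7% GC, the Sox2 window 25 at 65.0%, the Klf4 window 40 at 74.3% and the Myc window 20 at 60.3%. Pou5f1 was thus the CpG-poorest of the 4 and Klf4 the CpG-richest.

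The genes lie at chr17:35642977-35647722 (plus strand, Pou5f1), chr3:34548927-34551382 (plus strand, Sox2, inside the long noncoding RNA gene Sox2ot), chr4:55540009-55545347 (minus strand, Klf4) and chr15:61816896-61821916 (plus strand, Myc). The composite Oct-Sox element, with any base allowed at the fifth position, and the octamer ATTTGCAT were searched on both strands within 20 kb either side of the TSS. Of all 20156 genes, 25.6% held the first and 87.0% the second in that window, and 0.258% and 1.7% of 300-bp promoters held them. The 4 promoter windows above held neither. Sites of the composite element are shown with 15 bases either side, with the element in capitals, because the levels of the marks at them are given below. Positions count from the TSS, negative upstream.
Pou5f1, at -1980 bp, chr17:35640982-35641021, minus strand: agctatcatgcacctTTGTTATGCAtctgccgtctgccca
Pou5f1, at 8305 bp, chr17:35651267-35651306, plus strand: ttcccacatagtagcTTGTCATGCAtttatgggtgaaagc
Sox2, at 4046 bp, chr3:34552958-34552997, plus strand: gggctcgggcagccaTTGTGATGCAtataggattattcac
Myc, at -12698 bp, chr15:61804183-61804222, minus strand: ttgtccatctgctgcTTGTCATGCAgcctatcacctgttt

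Klf4 had no match to the composite element and 1 to the octamer. These matches describe letters of the genome only.

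RNA of all 4 factors was higher in both pre-iPSC libraries than in both MEF libraries. From pre-iPSCs to iPSCs the log2 differences of all 4 were negative in the fit over all libraries. Those of Klf4 and Myc passed the test, and those of Pou5f1 and Sox2 did not. Whether the factors differ from each other in this step was not tested. FPKM, fragments per kilobase of transcript scaled to the fragments of the library, come from fragments of a gene's exons and do not separate transcripts of the cell's own locus from those of an added cDNA. In bulk RNA, fewer cells of a type and less RNA per cell cannot be told apart. Calls in the RNA comparisons needed a Benjamini-Hochberg adjusted p under 0.05 and a log2 change of at least 1 in limma on log2(FPKM + 1), a scale that understates the change of low genes.

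Pou5f1, the gene of the POU factor, was listed at 0 FPKM in MEF replicate 1 and had 0.5 FPKM in replicate 2. It had 378 and 3184 FPKM in the pre-iPSC libraries and 586 and 397 FPKM in the iPSC libraries. The pre-iPSC libraries differed from each other by 8.42-fold and lay on either side of both iPSC libraries, and no MEF library overlapped the other groups. In order of FPKM among the 20156 genes, Pou5f1 stood at 18 in pre-iPSC replicate 2 and at 141 in replicate 1, and at 117 and 130 in iPSCs.

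Sox2, the gene of the HMG-box partner of Oct4, had 0.124 and 0.128 FPKM for MEFs, 272 and 171 FPKM for pre-iPSCs and 65.7 and 116 FPKM for iPSCs. The 3 groups did not overlap, with pre-iPSCs highest. Of the 12401 genes tested, 24.6% were higher without overlap in pre-iPSCs against MEFs. By the same rule 31.1% were lower in iPSCs against pre-iPSCs and 26.7% higher in iPSCs against MEFs. Klf4, the zinc-finger factor, had 25.1 and 37.55 FPKM for MEFs, 674 and 782 FPKM for pre-iPSCs and 99.6 and 104.6 FPKM for iPSCs. Its libraries fell into 3 separate ranges as well, and replicates of pre-iPSCs and iPSCs differed by 1.16-fold and 1.05-fold.

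Myc, the growth factor-responsive bHLH gene, had 57.75 and 36.3 FPKM for MEFs, 337 and 816 FPKM for pre-iPSCs and 9.85 and 7.34 FPKM for iPSCs. It was the member whose iPSC libraries lay below its MEF libraries, as did those of 36.2% of genes. Its rank went from 160 and 99 in pre-iPSCs to 4941 and 5839 in iPSCs. On the FPKM scale, the order within MEFs was Myc and Klf4, which overlapped, then Pou5f1 and Sox2 near 0. Within iPSCs the order was Pou5f1, then Sox2 and Klf4, which overlapped, then Myc.

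**Figure D1:**
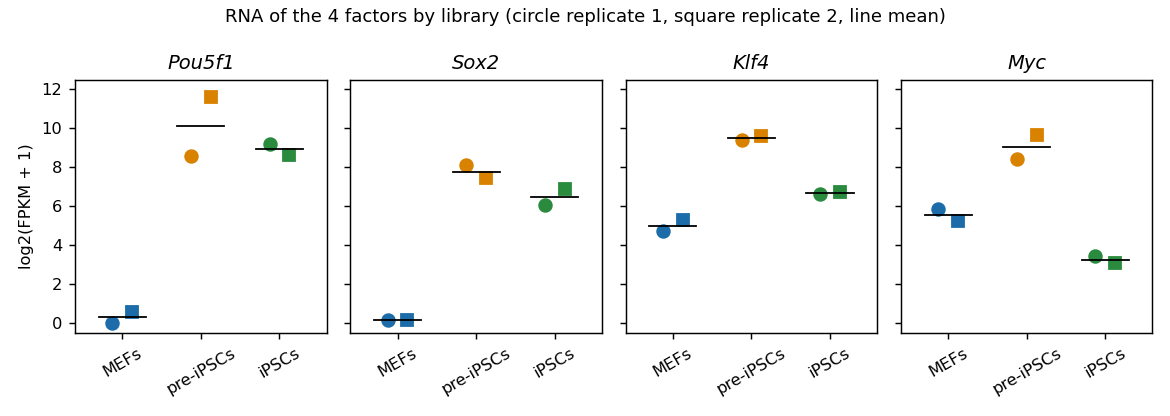
RNA level of each factor as log2(FPKM + 1) on the y axis in the 2 libraries of MEFs, pre-iPSCs and iPSCs (circle replicate 1, square replicate 2, line the mean). All pre-iPSC points lie above the MEF points, and Myc in iPSCs, at 9.85 and 7.34 FPKM, lies below its MEF points.

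In pre-iPSCs against MEFs 4 of 4 factors were called higher, where 7.39% of the 12401 genes tested were called higher. The log2 changes were 9.81 ± 0.77 (SE, adjusted p = 9.38e-04) for Pou5f1, 7.59 ± 0.43 (adjusted p = 3.73e-04) for Sox2, 4.52 ± 0.38 (adjusted p = 1.11e-03) for Klf4 and 3.49 ± 0.51 (adjusted p = 5.42e-03) for Myc. All 4 also had libraries that did not overlap, as did 24.6% of genes in this direction. The study calls the 2 libraries of a cell type biological replicates, without saying what sets them apart. The p-values measure only the spread between such libraries, part of which may be technical.

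In iPSCs against pre-iPSCs 2 of 4 factors were called lower, against 4.71% of all genes tested (3.91% were called higher). Klf4 fell by 2.82 on the log2 scale (SE 0.38, adjusted p = 6.25e-03) and Myc fell by 5.79 (SE 0.51, adjusted p = 1.60e-03). Sox2 had a log2 difference of -1.30 ± 0.43 with adjusted p = 0.122, and Pou5f1 one of -1.18 ± 0.77 with adjusted p = 0.453. The Pou5f1 value moved with single libraries: without pre-iPSC replicate 2 it was 0.35, without iPSC replicate 2 it was 0.01, and without pre-iPSC replicate 1 it was -2.71. Sox2 was called, at the same -1.30, without either MEF library. The calls of Klf4 and Myc were both lost without either iPSC library, with values of -2.98 and -2.66 for Klf4 and -6.13 and -5.44 for Myc, and Klf4 also without pre-iPSC replicate 1, at -2.77. Without iPSC replicate 1 or 2 the calls over all genes in this comparison went from 1069 to 91 and 36.

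In iPSCs against MEFs 3 of 4 factors were called higher, beside 10.3% of genes, and 1 lower, beside 15.5%. Pou5f1 rose by 8.62 ± 0.77 (adjusted p = 9.39e-04), Sox2 by 6.29 ± 0.43 (adjusted p = 6.26e-04) and Klf4 by 1.70 ± 0.38 (adjusted p = 0.018) on the log2 scale. Myc fell by 2.30 (SE 0.51, adjusted p = 0.0174). Without iPSC replicate 1 or 2 the calls of Klf4 (1.54 and 1.86) and Myc (-2.64 and -1.95) were lost, and without either pre-iPSC library that of Klf4 was lost at an unchanged 1.70. Over all genes the calls went from 3206 to 655 and 1160 without iPSC replicate 1 or 2. The median of all genes in the 3 comparisons was -0.04, -0.09 and -0.14.

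The gene lists that follow are read against the shares of all 12401 genes, of which 7.39% were called higher and 9.0% lower in pre-iPSCs against MEFs, 3.91% and 4.71% in the step from pre-iPSCs to iPSCs, and 10.3% and 15.5% between MEFs and iPSCs. Of 9 tested relatives of the 4 factors, 4 rose and 1 fell in pre-iPSCs against MEFs, 3 rose from pre-iPSCs to iPSCs and 8 rose from MEFs to iPSCs, with medians of 1.48, 1.68 and 2.25. Mycn, the Myc family gene of embryonic cells, had 0.623 and 0.271 FPKM for MEFs, 16.05 and 0.615 FPKM for pre-iPSCs and 46.7 and 40.0 FPKM for iPSCs, so both iPSC libraries were highest while Myc was lowest there. It rose by 4.94 ± 0.76 in iPSCs against MEFs (limma adjusted p = 4.46e-03). Sox15 had 0.099 and 0.0762 FPKM for MEFs, 4.56 and 20.8 FPKM for pre-iPSCs and 9.99 and 12.7 FPKM for iPSCs. Sox1, a Sox2-like gene of neural cells, had 0.0243 and 0 FPKM for MEFs, 2.69 and 1.15 FPKM for pre-iPSCs and 10.96 and 5.84 FPKM for iPSCs. In both Sox genes all pre-iPSC and iPSC libraries were above the MEF libraries.

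Among 8 tested partners and antagonists of Myc, 2 rose (Mnt and Mxi1) and none fell in pre-iPSCs against MEFs, 1 fell from pre-iPSCs to iPSCs and 1 from MEFs to iPSCs, with medians of 0.25, -0.42 and 0.07. A single fall among 8 genes from MEFs to iPSCs is near the share of all genes. Both falls were those of Mxd4, a Max-binding repressor, which had 14.5 and 29.96 FPKM for MEFs, 18.0 and 29.25 FPKM for pre-iPSCs and 2.49 and 3.90 FPKM for iPSCs. Max, the partner of Myc, had 46.8 to 57.3 FPKM in all 6 libraries. Of 10 genes known as Myc targets, 1 fell in pre-iPSCs against MEFs, none passed from pre-iPSCs to iPSCs and 1 rose and 1 fell from MEFs to iPSCs, with medians of -0.01, -0.01 and 0.34. These counts are near the shares of all genes. Ccnd2, a cyclin of G1 phase, had 142.8 and 176.7 FPKM for MEFs, 23.9 and 17.9 FPKM for pre-iPSCs and 3.39 and 9.73 FPKM for iPSCs, with MEFs highest. Cad, an enzyme of pyrimidine synthesis, rose by 1.17 ± 0.34 in iPSCs against MEFs (limma adjusted p = 0.0438), from 23.3 and 9.49 FPKM to 46.9 and 25.9 FPKM.

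Of 8 genes known to carry Oct-Sox elements, 4 rose in pre-iPSCs against MEFs, 6 from pre-iPSCs to iPSCs and 8 from MEFs to iPSCs. The medians were 1.33, 5.54 and 5.99. All 8 had at most 0.331 FPKM in MEFs and passed the filter on mean FPKM through the other cells. A fall from MEFs could therefore not be called, and none fell from pre-iPSCs to iPSCs. Fbxo15, an F-box gene used as a reporter of pluripotency, had 0 and 0.104 FPKM for MEFs, 54.7 and 70.35 FPKM for pre-iPSCs and 72.5 and 82.1 FPKM for iPSCs, and was already high in pre-iPSCs. Lefty1, a Nodal antagonist, had 0.331 and 0.0512 FPKM for MEFs, 0.428 and 0.238 FPKM for pre-iPSCs and 114.0 and 187.2 FPKM for iPSCs, and was low in all 4 libraries of MEFs and pre-iPSCs. Utf1, a chromatin-bound factor, was listed at 0 in both MEF libraries and had 23.2 and 1.67 FPKM for pre-iPSCs and 544 and 220.3 FPKM for iPSCs. With Pou5f1 and Sox2 RNA high in both cell types, members of this list thus differed between pre-iPSCs and iPSCs.

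Of 7 genes known for silencing retroviruses, none passed in pre-iPSCs against MEFs, 3 rose from pre-iPSCs to iPSCs and 4 rose from MEFs to iPSCs, with medians of 0.42, 1.27 and 1.69. Dnmt3l, a cofactor of de novo DNA methylation, was listed at 0 in both MEF libraries and pre-iPSC replicate 2, had 0.0511 FPKM in pre-iPSC replicate 1 and 83.7 and 67.8 FPKM in iPSCs. Dnmt3b, a de novo methyltransferase, had 0.546 and 0.317 FPKM for MEFs, 15.6 and 1.63 FPKM for pre-iPSCs and 40.9 and 45.7 FPKM for iPSCs. Dnmt3a, the other de novo enzyme, had 3.0 and 2.34 FPKM for MEFs, 4.09 and 3.69 FPKM for pre-iPSCs and 23.3 and 12.4 FPKM for iPSCs. All 3 were the calls from pre-iPSCs to iPSCs and Trim28 was the fourth from MEFs to iPSCs.

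Markers of the cell types were checked against the labels. Of 10 fibroblast markers 8 fell in both comparisons with MEFs, where 9.0% and 15.5% of all genes were called lower, with medians of -3.55 and -3.05, and their summed level was 4448 FPKM in both MEF libraries, 354 and 113 FPKM for pre-iPSCs and 263 and 307 FPKM for iPSCs. Col1a1, a collagen chain, had 2144 and 1614 FPKM for MEFs, 93.7 and 27.7 FPKM for pre-iPSCs and 74.7 and 70.6 FPKM for iPSCs. Col1a2 and Prrx1 fell in both comparisons as well, and Lum and Dcn were the 2 markers that did not pass. None of the 10 was at 0 in the pre-iPSC or iPSC libraries, and the part of such cells in the levels of the 4 factors was not tested.

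Of 8 pluripotency markers 3 rose in pre-iPSCs against MEFs, 7 from pre-iPSCs to iPSCs and 8 from MEFs to iPSCs, with medians of 0.68, 5.54 and 5.93. Their summed level was 0.0439 and 0.428 FPKM for MEFs, 255 and 341 FPKM for pre-iPSCs and 1700 and 1787 FPKM for iPSCs. From such levels in MEFs these markers could only rise, and some of them, such as Utf1, are also in the list of genes with Oct-Sox elements. Tdgf1, a Nodal co-receptor, made up most of the pre-iPSC sum with 228 and 333 FPKM. Dppa5a, an RNA-binding protein of pluripotent cells, had 1.70 and 5.01 FPKM for pre-iPSCs and 725 and 842 FPKM for iPSCs. Of 5 epithelial markers 3 rose and 1 fell in pre-iPSCs against MEFs, 2 rose from pre-iPSCs to iPSCs and 4 rose from MEFs to iPSCs, with medians of 3.57, 1.73 and 1.88. Cdh1 (E-cadherin), Epcam and Krt8 rose from MEFs to both other cell types. Krt18 fell in pre-iPSCs against MEFs by 1.56 on the log2 scale, and it and Cdh1 were the genes that rose from pre-iPSCs to iPSCs.

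Genes with the pattern most like each member were taken by the smallest root mean square difference in centred log2(FPKM + 1) over the 6 libraries. For Pou5f1 they were Tdgf1 at 1.16, Sox2 at 1.58 and L1td1 at 1.73. For Sox2 they were L1td1 at 0.49, Tdh at 0.65 and Fbxo15 at 0.85. Klf4 was closest to Arhgap8 at 0.28, Mapt at 0.31 and Sigirr at 0.32, and Myc to Krt19 at 0.28, Dusp14 at 0.59 and Eya2 at 0.79. Krt19 had 18.6 and 15.3 FPKM for MEFs, 95.6 and 231 FPKM for pre-iPSCs and 2.81 and 2.99 FPKM for iPSCs, the same order of groups as Myc.

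At Pou5f1 the chromatin libraries held a block of raised reads with sharp edges, and MEF libraries differed over it. Levels are given as RPKM, reads of calls per kilobase scaled to the unique reads of the library, with each nucleosome call counted at its centre. From about 8 kb upstream of the TSS to 9 kb downstream, without the stretch near 1 kb upstream, H3 was at 5.05 and 0.309 RPKM for MEFs, 10.52 and 4.83 RPKM for pre-iPSCs and 5.49 and 4.05 RPKM for iPSCs. Beyond the block, out to 20 kb, H3 was at 0.27 and 0.317 RPKM for MEFs, 0.916 and 0.315 RPKM for pre-iPSCs and 0.484 and 0.333 RPKM for iPSCs. The ratio of block to outside was 18.7 in MEF replicate 1, 0.977 in MEF replicate 2, 11.5 and 15.35 for pre-iPSCs and 11.3 and 12.15 for iPSCs. MEF replicate 2 was thus the H3 library without the block, and the 5 others had it.

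Each edge fell between neighbouring bins of 250 bp. At the upstream edge the H3 level went from 0 to 2.77 RPKM in MEF replicate 1, from 1.63 to 13.3 and from 0 to 3.75 RPKM in pre-iPSCs, and from 0 to 6.50 and from 0.563 to 3.07 RPKM in iPSCs. At the downstream edge it went from 5.59 to 0.938 RPKM in MEF replicate 1, from 11.1 to 0.77 and from 4.77 to 0 RPKM in pre-iPSCs, and from 5.31 to 0 and from 4.20 to 0.736 RPKM in iPSCs. MEF replicate 2 had at most 0.361 RPKM in these 4 bins. The block included the introns of Pou5f1, where H3 was at 5.58 and 0.316 RPKM for MEFs, 14.4 and 5.38 RPKM for pre-iPSCs and 5.34 and 3.80 RPKM for iPSCs. Levels there were thus close to or above those of the block as a whole in the 5 libraries that held it.

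Within the block a gap lay from 1000 to 251 bp upstream of the TSS. H3 there was at 0.343 and 0.433 RPKM for MEFs, 1.55 and 0.25 RPKM for pre-iPSCs and 0.459 and 0.216 RPKM for iPSCs, so MEF replicate 1 no longer stood above replicate 2. The promoter window printed above begins where the block resumes.

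The same libraries of H3K4me3, the mark of active promoters, and of H3K27me3, the Polycomb mark, carried the block. Its ratio to outside was 9.39 and 0.724 for MEFs, 16.4 and 16.9 for pre-iPSCs and 16.3 and 14.8 for iPSCs for H3K4me3. For H3K27me3 it was 13.9 and 1.31 for MEFs, 14.5 and 16.7 for pre-iPSCs and 9.17 and 9.65 for iPSCs. H3K9me3, the heterochromatin mark, had 1 library each, and its ratio was 1.26 for MEFs, 25.7 for pre-iPSCs and 12.0 for iPSCs. All MEF libraries of replicate 2 and the MEF library of H3K9me3 lacked the block, while the labels describe every MEF sample as hemizygous for the Oct4-GFP transgenic allele. The part of that allele in the block was not tested.

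**Figure D2:**
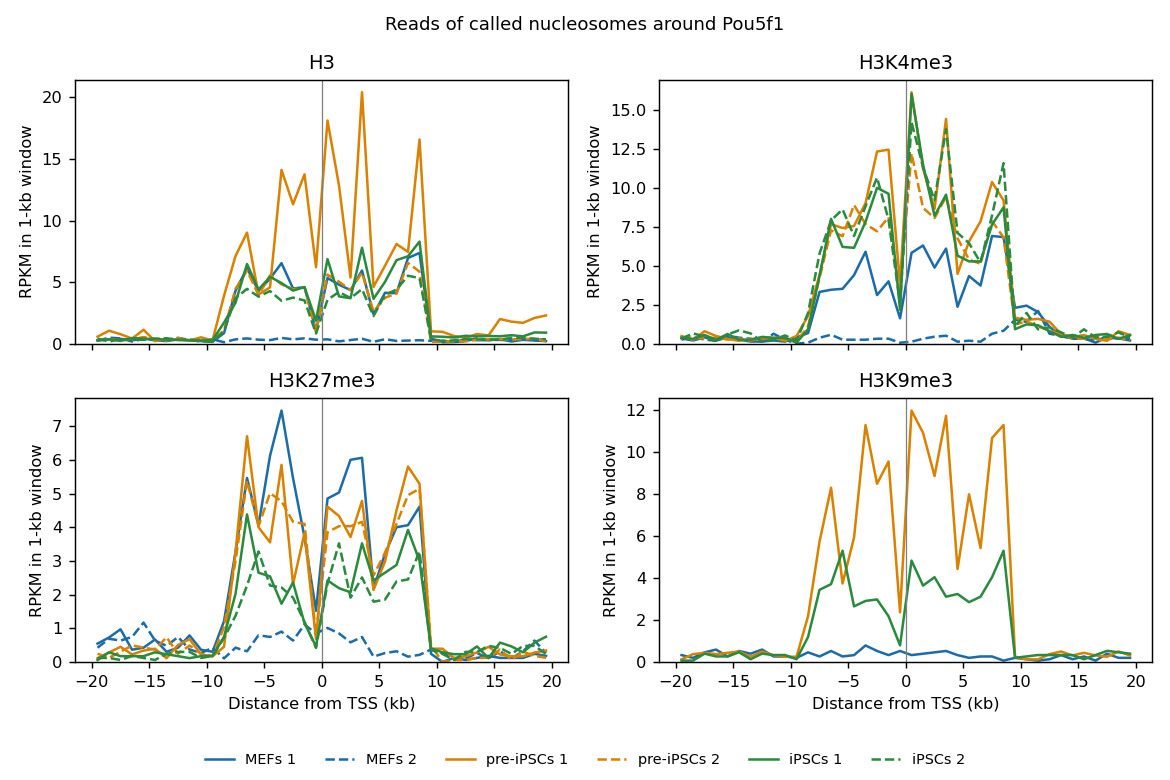
Reads of called nucleosomes as RPKM in 1-kb windows (y axis) against distance from the Pou5f1 TSS in kb (x axis), for H3, H3K4me3, H3K27me3 and H3K9me3, with a solid line for replicate 1 and a dashed line for replicate 2. The block from about 8 kb upstream to 9 kb downstream is raised in all pre-iPSC and iPSC libraries and MEF replicate 1 of the first 3 marks, and not in MEF replicate 2 or the MEF H3K9me3 library.

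Runs of windows in which H3 differed between the MEF replicates were seen at other genes too. At Pou5f1 a run of 18 windows of 1 kb had at least 3 times as much H3 in MEF replicate 1 as in replicate 2. A run of at least 10 kb was found at 24 of the 20156 genes, and at 5 genes in the opposite direction. The rule asked neither for sharp edges nor for raised reads over the surroundings, and neighbouring genes can share a run. The 24 include Pou5f1 and its neighbours Tcf19 and Cchcr1, whose windows of 20 kb either side of the TSS take in the run at Pou5f1. The Tcf19 gene reaches into the block at its 3' end, and Cchcr1 lies outside it. Tcf19, whose TSS lies 10792 bp downstream, had 18.6 and 24.55 FPKM for MEFs, 14.3 and 9.40 FPKM for pre-iPSCs and 19.6 and 9.10 FPKM for iPSCs. Cchcr1, with a TSS 11068 bp downstream, had 7.43 and 4.55 FPKM for MEFs, 9.03 and 11.6 FPKM for pre-iPSCs and 5.58 and 5.50 FPKM for iPSCs. Neither gene was called in any of the 3 comparisons. The pre-iPSC libraries lay below the MEF libraries in Tcf19, as in 29.3% of genes. They lay above them in Cchcr1, as in 24.6% of genes.

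At the composite element at -1980 bp from the TSS of Pou5f1, inside the block, H3K4me3 within 500 bp was at 5.14 and 0.191 RPKM for MEFs, 12.7 and 10.8 RPKM for pre-iPSCs and 12.3 and 9.47 RPKM for iPSCs. H3K27me3 there was at 5.93 and 0.847 RPKM for MEFs, 4.10 and 5.44 RPKM for pre-iPSCs and 1.78 and 1.25 RPKM for iPSCs. Both iPSC libraries lay between the MEF libraries for H3K27me3. At the element at 8305 bp, near the downstream edge, H3K4me3 was at 6.30 and 0.7 RPKM for MEFs, 9.07 and 6.81 RPKM for pre-iPSCs and 8.37 and 11.64 RPKM for iPSCs. H3K27me3 was at 5.03 and 0.212 RPKM, 5.23 and 4.95 RPKM, and 3.28 and 3.04 RPKM in the same order. MEF replicate 2 was the lowest library for both marks. Copies of the block and the locus of the cell cannot be told apart at these sites.

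Reads within 500 bp of the TSS gave the promoter comparison, in which Pou5f1 was the member called. H3K4me3 reads of Pou5f1 numbered 45 and 1 for MEFs, 118 and 104 for pre-iPSCs and 109 and 83 for iPSCs. The MEF libraries were both below the others, though 45 reads apart from 1. As levels these were 1.56 ± 2.11 RPKM (SD, n = 2) for MEFs, 6.99 ± 0.339 RPKM for pre-iPSCs and 6.11 ± 0.919 RPKM for iPSCs. In edgeR's quasi-likelihood test 1 of 4 factors was called in pre-iPSCs against MEFs, where 1.98% of 14878 promoters were called, and 1 of 4 in iPSCs against MEFs, where 6.23% were (1.65% and 5.05% higher, 0.336% and 1.18% lower). The log2 change of Pou5f1 was 2.72 ± 0.37 (adjusted p = 3.07e-09) and 2.42 ± 0.37 (adjusted p = 4.64e-07). The test draws its spread from all promoters together. Its SE and p thus do not measure the distance between 45 reads and 1 read in the MEF libraries. H3 in the same window was at 2.35 and 0.315 RPKM for MEFs, 12.44 and 2.35 for pre-iPSCs and 4.05 and 2.08 for iPSCs. MEF replicate 2 was thus lowest for H3 as well. Over the block, H3K4me3 relative to H3 was 0.936 and 1.11 for MEFs, 0.9 and 1.58 for pre-iPSCs and 1.48 and 2.23 for iPSCs. The part of H3 in these changes was not tested.

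The H3K4me3 log2 changes of Pou5f1 depended on the MEF library. Without MEF replicate 1, which had the block, they were 6.86 and 6.56. That fit sets libraries with the block against a MEF library without it. The block and a change of the mark cannot be told apart in it. Without MEF replicate 2 the changes were 1.80 and 1.5. DESeq2 gave 2.73 and 2.43 and no call. In iPSCs against pre-iPSCs no promoter was called in edgeR or DESeq2, with 1091 and 276 promoters at an unadjusted p under 0.05, and the 4 factors had log2 differences between -0.63 and 0.85.

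The stretch from 250 to 1200 bp upstream, chosen after the block was seen, was free of the excess in MEF replicate 1. H3 reads of Pou5f1 there numbered 23 and 44 for MEFs, 151 and 17 for pre-iPSCs and 43 and 15 for iPSCs. H3K4me3 reads numbered 6 and 3 for MEFs, 20 and 16 for pre-iPSCs and 14 and 13 for iPSCs, or 0.315 ± 0.161 RPKM (SD, n = 2), 1.19 ± 0.141 RPKM and 0.907 ± 0.0099 RPKM. All 4 libraries of pre-iPSCs and iPSCs were above both MEF libraries, and the share of all promoters with this order was not counted. The log2 change was 2.18 (edgeR adjusted p = 0.0924) and 1.82 (adjusted p = 0.0938), which did not pass over the 11426 promoters tested, of which none was called in pre-iPSCs against MEFs (1369 at an unadjusted p under 0.05) and 31 in iPSCs against MEFs.

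H3K27me3 in the same stretch numbered 7 and 15 reads for MEFs, 3 and 2 for pre-iPSCs and 3 and 3 for iPSCs. Here both MEF libraries were above all others, at 0.641 ± 0.276 RPKM (SD, n = 2) against 0.153 ± 0.0346 RPKM and 0.185 ± 0.00424 RPKM. The counts were below the filter of the test, and the share of all promoters with this order was not counted. In the window of 500 bp either side, H3K27me3 of Pou5f1 numbered 38 and 3 reads for MEFs, 27 and 31 for pre-iPSCs and 22 and 28 for iPSCs. MEF replicate 1 was the highest library and replicate 2 the lowest. In the stretch from 250 to 1200 bp upstream both MEF libraries were highest, whereas within 500 bp MEF replicate 2 was lowest. The order in the upstream stretch rests on few reads and was not tested. There the Poisson interval for counting error of MEF replicate 1, 0.179 to 0.919 RPKM, overlapped those of all pre-iPSC and iPSC libraries. The interval of MEF replicate 2, 0.468 to 1.38 RPKM, lay above that of pre-iPSC replicate 2, 0.0156 to 0.464 RPKM. It overlapped those of the other pre-iPSC and iPSC libraries.

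For H3K27me3 within 500 bp, Pou5f1 was the member of 4 that passed the filter on low counts, and it was not called in any comparison, where 2.77%, 0.0901% and 4.15% of 4439 promoters were. In pre-iPSCs against MEFs 1.71% of promoters were called higher and 1.06% lower, and in iPSCs against MEFs 2.79% and 1.35%. As for H3K4me3, the SEs draw on all promoters and do not measure the distance between the MEF libraries. The log2 change of Pou5f1 was 0.54 ± 0.38 (edgeR adjusted p = 0.525) in pre-iPSCs against MEFs and 0.36 ± 0.39 (adjusted p = 0.7) in iPSCs against MEFs. Without MEF replicate 1 it was 3.46 and 3.25, where again all libraries but the MEF one held the block, so the block and the mark cannot be told apart. Without MEF replicate 2 it was -0.51 and -0.71.

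H3K4me3 at the promoters of the other factors was present in every library. Sox2 had 21 and 10 reads for MEFs, 11 and 16 for pre-iPSCs and 41 and 12 for iPSCs. Klf4 had 26 and 11 reads for MEFs, 11 and 8 for pre-iPSCs and 17 and 11 for iPSCs. Myc had 36 and 34 reads for MEFs, 27 and 24 for pre-iPSCs and 20 and 15 for iPSCs. The Sox2 and Klf4 libraries overlapped between MEFs and iPSCs, and those of Myc fell into 3 separate ranges with MEFs highest, as reads not scaled between libraries. The share of all promoters with the order of Myc was not counted. Over all genes the median H3K4me3 level in the kb after the TSS was highest in MEFs too, at 1.42 and 1.08 RPKM for MEFs, 0.981 and 0.91 RPKM for pre-iPSCs and 1.06 and 0.921 RPKM for iPSCs.

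None of these 3 genes was called. In iPSCs against MEFs the log2 change was 1.08 ± 0.39 (edgeR adjusted p = 0.0663) for Sox2, -0.06 ± 0.44 (adjusted p = 0.96) for Klf4 and -0.67 ± 0.35 (adjusted p = 0.257) for Myc. In pre-iPSCs against MEFs it was 0.23 ± 0.44 (adjusted p = 0.863), -0.53 ± 0.48 (adjusted p = 0.661) and -0.04 ± 0.33 (adjusted p = 0.974). Scaling by unique reads in place of TMM took the median of all promoters from -0.01 to -0.50 in pre-iPSCs against MEFs and from -0.03 to -0.42 in iPSCs against MEFs, and the split of calls from 245 higher and 50 lower to 28 and 174, and from 752 and 175 to 139 and 251. Under that scaling the sign of Sox2 in pre-iPSCs against MEFs turned, to -0.26, which is above that median. The directions of these small differences also turned with other settings, given at the end.

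The promoter windows of Pou5f1 and Sox2 also reach into coding exons, which a cDNA copy shares. With 1 kb either side of the TSS, Sox2 was called in iPSCs against MEFs, at 1.13 (edgeR adjusted p = 0.00616), where 13.76% of promoters were called. In the window from 1 to 2 kb downstream H3K4me3 of Sox2 was at 0.678 and 0.51 RPKM for MEFs, 1.66 and 1.69 RPKM for pre-iPSCs and 3.6 and 2.50 RPKM for iPSCs. This window holds coding sequence.

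In most pre-iPSC and iPSC libraries H3 over the coding exons of Klf4, Myc and Sox2 stood above that of their other parts, which was not so in MEFs. Klf4 coding exons, 1449 bp on chromosome 4, had H3 at 0.154 and 0.162 RPKM for MEFs, 4.72 and 0.678 RPKM for pre-iPSCs and 3.23 and 0.881 RPKM for iPSCs. Its introns had 0.116 and 0.179 RPKM for MEFs, 0.45 and 0.21 RPKM for pre-iPSCs and 0.547 and 0.258 RPKM for iPSCs. The noncoding flank out to 20 kb was between 0.269 and 0.384 RPKM in all 6 libraries. In MEFs the coding exons were thus below the flank, and in every pre-iPSC and iPSC library above it.

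Myc coding exons, 1362 bp on chromosome 15, had H3 at 0.148 and 0.205 RPKM for MEFs, 4.57 and 0.762 RPKM for pre-iPSCs and 2.55 and 1.23 RPKM for iPSCs. Its introns had 0.108 and 0.171 RPKM for MEFs, 0.534 and 0.144 RPKM for pre-iPSCs and 0.373 and 0.198 RPKM for iPSCs, and its flank was between 0.282 and 0.349 RPKM. Here too the coding exons of all pre-iPSC and iPSC libraries, and of no MEF library, were above the flank. The untranslated parts of its exons had 0.16 and 0.102 RPKM for MEFs, 0.647 and 0.237 RPKM for pre-iPSCs and 0.312 and 0.188 RPKM for iPSCs. They were below the coding exons in all libraries but MEF replicate 1.

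Sox2 has no intron, and its 957 coding bp on chromosome 3 had H3 at 0.117 and 0.151 RPKM for MEFs, 3.71 and 0.208 RPKM for pre-iPSCs and 2.51 and 0.362 RPKM for iPSCs. Pre-iPSC replicate 2 was below its own flank level of 0.292 RPKM, and the other 3 libraries of pre-iPSCs and iPSCs were above theirs. In all 3 genes pre-iPSC replicate 1 and iPSC replicate 1 were the highest libraries. Over the coding exons the H3 level of 4 of 4 factors was higher in every pre-iPSC and iPSC library than in both MEF libraries, as in 16.6% of all genes. In pre-iPSC replicate 1 and iPSC replicate 1 the ratio of coding exons to flank followed GC content over all genes, with Spearman's rho of 0.583 and 0.484 against -0.251 to -0.138 in the other 4, described across 18018 genes, which are not independent.

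H3K4me3 showed the coding exons as well. Klf4 coding exons had 1.64 and 2.07 RPKM for MEFs, 5.80 and 4.17 RPKM for pre-iPSCs and 6.43 and 4.36 RPKM for iPSCs, while its introns had 2.02 and 1.88 RPKM, 0.611 and 1.63 RPKM, and 1.72 and 1.31 RPKM. MEFs were lowest in the coding exons and highest in the introns. Along the gene, the kb after the TSS had 2.91 and 2.17 RPKM in MEFs against 1.17 to 1.86 RPKM in the other libraries, where the median of all genes was also higher in MEFs, at 1.42 and 1.08 RPKM against 0.91 to 1.06 RPKM. The window from 2 to 3 kb downstream, which holds part of the large coding exon, had 2.10 and 2.55 RPKM against 4.02 to 6.40 RPKM.

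Myc coding exons had H3K4me3 at 2.49 and 2.10 RPKM for MEFs, 4.05 and 4.77 RPKM for pre-iPSCs and 5.24 and 7.06 RPKM for iPSCs. The windows with its 2 large coding exons, from 2 and from 4 kb downstream, were higher in all pre-iPSC and iPSC libraries than in MEFs, with 3.05 and 2.42 RPKM in MEFs against 3.66 to 7.17 RPKM in the first and 1.36 and 1.02 RPKM against 2.21 to 3.04 RPKM in the second. The window between them, from 3 kb, went the other way, with 2.44 and 2.17 RPKM in MEFs against 0.675 to 1.51 RPKM. In the kb after the TSS Myc had 2.64 and 2.17 RPKM for MEFs, 2.02 and 1.95 RPKM for pre-iPSCs and 1.12 and 0.987 RPKM for iPSCs, beside the higher median of all genes in MEFs given above. Over the coding exons H3K4me3 of 4 of 4 factors was higher in every pre-iPSC and iPSC library than in both MEF libraries, as in 15.3% of all genes.

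**Figure D3:**
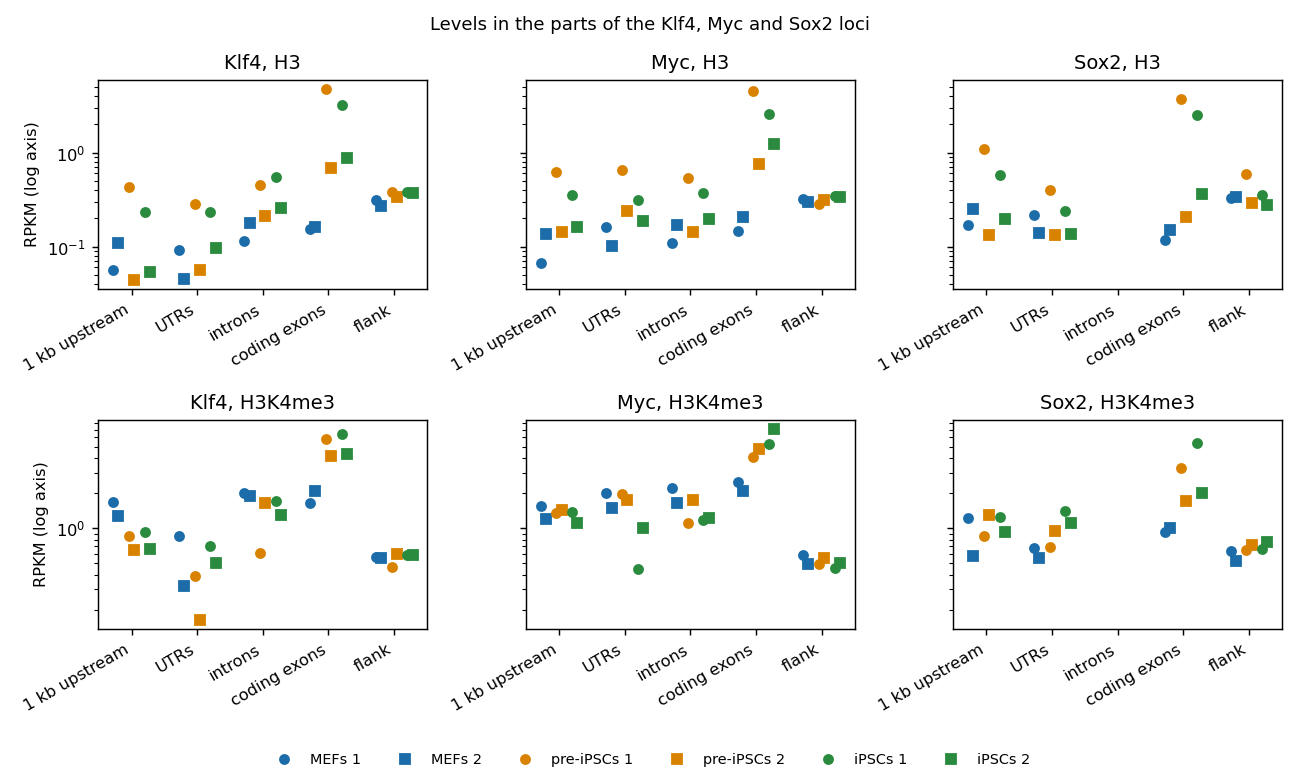
Levels of H3 (top) and H3K4me3 (bottom) as RPKM on a log axis in 5 parts of the Klf4, Myc and Sox2 loci, with 1 point per library (circle replicate 1, square replicate 2). Coding exons of Klf4 and Myc are higher in all pre-iPSC and iPSC libraries than in MEFs, at 0.678 to 4.72 RPKM of H3 against 0.154 and 0.162 RPKM for Klf4, while its flanks lie between 0.269 and 0.384 RPKM.

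H3K27me3 was low over the coding exons of Klf4 and Myc in MEFs. Klf4 had 4 and 1 reads for MEFs, 18 and 30 for pre-iPSCs and 17 and 31 for iPSCs, and Myc had 1 and 4 reads for MEFs, 27 and 29 for pre-iPSCs and 43 and 52 for iPSCs. In both genes all pre-iPSC and iPSC libraries were above the MEF libraries, as in 18.9% of all genes by RPKM of the coding exons. The coding exons of Sox2 overlapped between the groups, with 9 and 14 reads for MEFs, 12 and 13 for pre-iPSCs and 19 and 6 for iPSCs. Promoter reads within 500 bp were too few for the test in both genes, with at most 4 for Klf4 and 9 for Myc in any library. With 1 kb either side of the TSS both were called higher, Klf4 at 4.20 and 3.79 and Myc at 1.97 and 1.61 in pre-iPSCs and iPSCs against MEFs, where 8.3% and 11.25% of promoters were called in either direction (edgeR adjusted p = 0.00206 and 0.00793 for Klf4, 0.0112 and 0.0491 for Myc). In MEFs the Klf4 values rest on 0 and 1 reads. The window of 1 kb either side reaches into coding parts of both genes, which a cDNA copy shares.

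H3K9me3 over coding exons, with 1 library per cell type and so no test, was above MEFs beyond counting error in part of the genes. Klf4 had 0.362 RPKM in MEFs (95% Poisson interval 0.156 to 0.714), 1.03 RPKM in pre-iPSCs (0.662 to 1.54) and 1.51 RPKM in iPSCs (1.04 to 2.12), and the interval of MEFs overlapped that of pre-iPSCs but not that of iPSCs. Myc had 0.193 RPKM (0.0525 to 0.493), 1.51 RPKM (1.04 to 2.12) and 1.31 RPKM (0.865 to 1.91), where the MEF interval lay below both others. The introns were alike in the 3 cell types, at 0.284, 0.243 and 0.315 RPKM for Klf4 and 0.22, 0.326 and 0.321 RPKM for Myc. Sox2 coding sequence had 0.549 RPKM (0.237 to 1.08), 0.978 RPKM (0.547 to 1.61) and 1.66 RPKM (1.06 to 2.47), with overlapping intervals between neighbours in that order and between MEFs and iPSCs. H3 over the coding exons of these genes was also higher than in MEFs, as given above. These H3K9me3 levels are not scaled to H3.

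Around the TSS H3K9me3 reads of these 3 genes were few. Those within 500 bp in MEFs, pre-iPSCs and iPSCs numbered 2, 2 and 2 for Klf4, 4, 5 and 5 for Myc, and 9, 5 and 1 for Sox2. Pou5f1 had 5, 74 and 23 reads there, inside the block, and 8, 6 and 6 reads in the stretch from 250 to 1200 bp upstream. The intervals cover counting error only, and reads of a PCR library are not independent molecules.

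The ratio of coding exons to flank within a library compares a gene's coding sequence with its own surroundings. It was tested for H3 with limma over 18018 genes, and no gene was called in any of the 3 comparisons (0% of all genes), with 388, 169 and 171 genes at an unadjusted p under 0.05. In pre-iPSCs against MEFs the log2 difference was 3.43 ± 0.91 for Myc, 3.15 ± 0.95 for Klf4, 2.33 ± 1.07 for Sox2 and 1.38 ± 0.65 for Pou5f1, each with a limma adjusted p of 0.802, and the Pou5f1 flank includes the block. In iPSCs against MEFs it was 3.15, 2.98, 2.83 and 1.44 in that order, and the median of all genes was 0.57 and 0.32. Single libraries moved these values. Without pre-iPSC replicate 1 the difference in pre-iPSCs against MEFs was 2.07 for Myc, 1.85 for Klf4, 0.8 for Sox2 and 1.12 for Pou5f1 with a median of -0.02, and without pre-iPSC replicate 2 it was 4.80, 4.44, 3.86 and 1.64 with a median of 1.23. In iPSCs against MEFs it was 2.65, 2.06, 1.63 and 1.25 with a median of 0.04 without iPSC replicate 1, and 3.65, 3.90, 4.03 and 1.63 with a median of 0.62 without iPSC replicate 2. No factor was called in any of these fits.

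GC correction brought the replicates of each cell type closer for Myc, Klf4 and Sox2 and moved them apart for Pou5f1. For Myc the log2 ratio was -0.91 and -0.56 for MEFs, 2.08 and 1.42 for pre-iPSCs and 1.72 and 1.86 for iPSCs. For Klf4 it was -0.52 and -0.44 for MEFs, 1.78 and 1.48 for pre-iPSCs and 1.95 and 1.54 for iPSCs. For Sox2 it was -0.75 and -0.64 for MEFs, 0.88 and 0.26 for pre-iPSCs and 1.71 and 0.91 for iPSCs. In these 3 genes every pre-iPSC and iPSC library had a ratio above 1 and both MEF libraries one below 1, as in 1.2% of all genes. As counted, Klf4, Myc and Pou5f1 met this rule, with 2.13% of all genes. Asking only that every pre-iPSC and iPSC library lay above both MEF libraries, 4 of 4 factors met it as counted, with 12.2% of all genes, and 3 of 4 after correction, with 6.96%. For Pou5f1 the log2 ratio was -0.34 and -0.78 for MEFs, -0.52 and 0.60 for pre-iPSCs and 0.20 and 0.65 for iPSCs, against -0.28 and -0.56, 1.22 and 0.70, and 1.21 and 0.83 without the correction, so that MEFs and pre-iPSCs overlapped after it.

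Over all 4 marks, 14 libraries of pre-iPSCs and iPSCs can be set against the 7 MEF libraries of the same marks. The GC-corrected ratio was above the MEF libraries of its mark in 14 of 14 libraries for Klf4 and for Myc, 13 of 14 for Sox2 and 8 of 14 for Pou5f1. The 14 libraries come from 2 clones of pre-iPSCs and their iPSCs, so they are not independent, and H3K9me3 has 1 MEF library. Of 18018 genes, 9 (0.05%) were above in all 14, Klf4 and Myc among them, and without the correction 15 (0.0833%). The other 7, seen after their values, were Ccdc102a, Ephb6, Magel2, Ppp1r13b, Prpf40b, Scpep1 and Tshr.

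**Figure D4:**
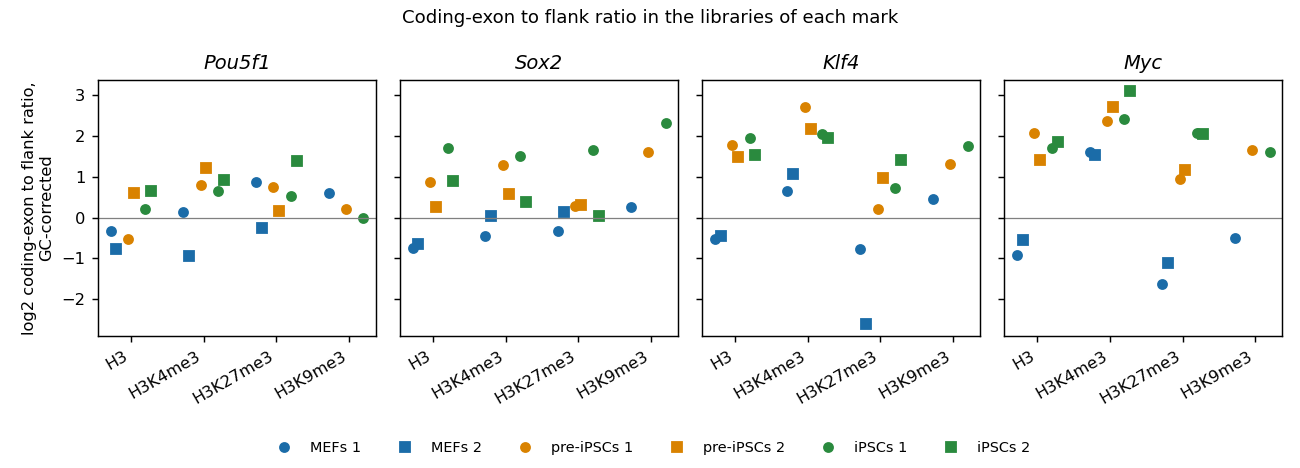
GC-corrected log2 ratio of reads per kb in coding exons to those in the noncoding flank (y axis) for the libraries of H3, H3K4me3, H3K27me3 and H3K9me3 (x axis), with circles for replicate 1 and squares for replicate 2. For Klf4 and Myc all 14 pre-iPSC and iPSC points lie above the MEF points of the same mark, and for Sox2 13 of 14 do.

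In the flanks of Sox2, which a coding cDNA does not hold, H3K27me3 differed between iPSCs and the other cells. The flank had 0.984 and 0.735 RPKM for MEFs, 0.598 and 0.732 RPKM for pre-iPSCs and 0.327 and 0.433 RPKM for iPSCs, so both iPSC libraries were below all others. An island of H3K27me3, a run of 1-kb windows with at least 6 reads each and 60 in all, in which gaps of 1 window were bridged, filled the 20 kb either side of the TSS in both MEF libraries (629 and 552 reads) and both pre-iPSC libraries (421 and 476 reads). In iPSC replicate 1 an island of 70 reads remained at the far upstream end, and in replicate 2 there was one of 141 reads upstream and one of 81 reads downstream, and neither library had one at the TSS. Over all genes the median 1-kb window held 4 to 6 reads of H3K27me3, so the threshold of 6 reads, not scaled between libraries, is near the median. Myc also had an island over the whole 20 kb either side in pre-iPSC replicate 1, with 355 reads. No test was made on the Sox2 flank, and the share of all genes with the order of its levels was not counted.

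At the composite element at 4046 bp from the TSS of Sox2, H3K27me3 within 500 bp was at 1.09 and 0.688 RPKM for MEFs, 0.0562 and 0.366 RPKM for pre-iPSCs and 0.23 and 0.239 RPKM for iPSCs. Both MEF libraries were above all others there, with 18 and 13 reads against at most 6. The share of all genes with this order was not counted. H3K4me3 at the element was between 0.7 and 0.992 RPKM in all 6 libraries. Within 500 bp of the Sox2 TSS, H3K27me3 numbered 11 and 9 reads for MEFs, 6 and 6 for pre-iPSCs and 1 and 1 for iPSCs. The counts fell below the filter of the main test, and with no filter iPSCs were called lower than MEFs, at -3.25 (edgeR adjusted p = 0.0143), where 1.19% of promoters were called.

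In MEFs the windows from 1 kb upstream to 1 kb downstream of Klf4 held 0 to 0.053 RPKM of H3K27me3, and in pre-iPSCs and iPSCs 0.113 to 0.672 RPKM. The downstream window includes coding parts. The flank as a whole was at 0.424 and 0.417 RPKM for MEFs, 0.568 and 0.639 RPKM for pre-iPSCs and 0.356 and 0.475 RPKM for iPSCs for Klf4, and at 0.323 and 0.381 RPKM, 0.486 and 0.544 RPKM, and 0.334 and 0.504 RPKM for Myc. Pre-iPSC libraries were highest for Klf4, and MEF and iPSC libraries overlapped in both genes. At the composite element at -12698 bp from the TSS of Myc, H3K4me3 was at 0.271 and 0.445 RPKM for MEFs, 0.184 and 0.0649 RPKM for pre-iPSCs and 0.372 and 0.197 RPKM for iPSCs, or 1 to 7 reads per library. Both pre-iPSC libraries were lowest in RPKM, though pre-iPSC replicate 1 and iPSC replicate 2 had 3 reads each. MEFs and iPSCs overlapped, and the share of all genes with this order was not counted. H3K27me3 there was between 0.173 and 0.489 RPKM, with the groups overlapping.

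**Figure D5:**
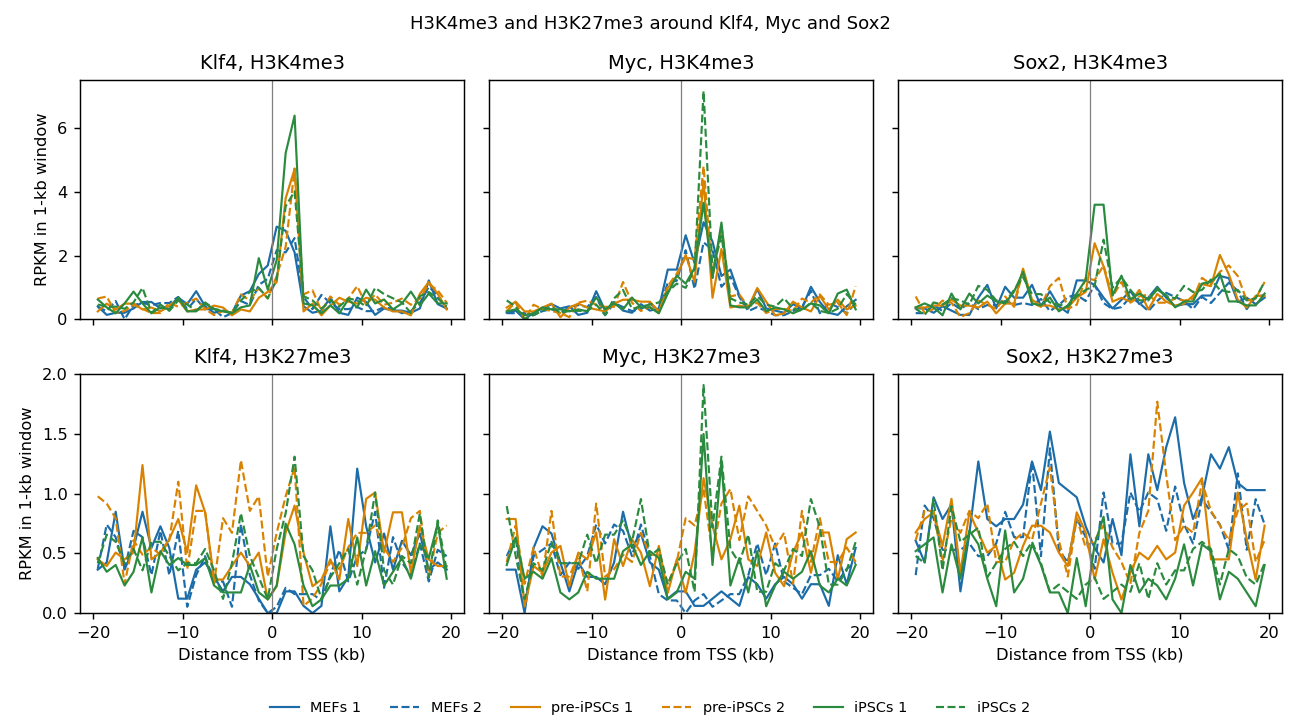
H3K4me3 (top) and H3K27me3 (bottom) as RPKM in 1-kb windows (y axis) against distance from the TSS in kb (x axis) of Klf4, Myc and Sox2, solid for replicate 1 and dashed for replicate 2. H3K4me3 is highest 2 to 3 kb downstream of the TSS of Myc in all 6 libraries and of Klf4 in all but MEF replicate 1, and around Sox2 the H3K27me3 lines of MEFs lie above those of iPSCs over most of the region.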

How the data were processed

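MEFs, pre-iPSCs and iPSCs were profiled by RNA-seq (6 libraries) and by MNase ChIP-seq for H3, H3K4me3, H3K27me3 and H3K9me3 (21 libraries). The deposited FPKM values were made by the authors, with TopHat2 2.0.4 and Cufflinks 2.0.2 named in the submitters' processing notes, in 2 tables. The deposited nucleosome calls, on mm9 after Bowtie 1.0.1, give a read count per nucleosome and a fuzziness score by the authors, and the score was not used.

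Expression was tested with limma 3.58.1 (R 4.3.3) on log2(FPKM + 1), with the table as a term, where a gene's mean reached 0.5 FPKM. Reads of calls centred within 500 bp of the TSS were tested with edgeR 4.0.16 (quasi-likelihood, filterByExpr, TMM), and the log2 ratio of H3 reads per kb in coding exons to those in the noncoding flank out to 20 kb, with 1 read added, with limma for genes with at least 300 coding bp and 10 reads on average. GC correction removed a lowess trend on the GC difference. P-values were Benjamini-Hochberg adjusted over all features. Intervals are exact Poisson intervals and cover counting error only. H3K9me3 has 1 library per cell type and was not tested. Reads were counted in Python 3.11.15 with pandas 2.3.3, numpy 2.4.6 and scipy 1.17.1.

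TSSs came from the deposited tables, sequences from the NCBI37/mm9 genome and coding exons from its GENCODE annotation (19638 of 20156 genes matched). The members and lists were chosen with earlier results of these data known. Genes named are the members, the 3 called genes of each list with the largest log2 change in iPSCs against MEFs, the 3 most alike per member and genes within 20 kb of a member's TSS. Max, Mnt, Mxi1, Trim28, Setdb1, Atf7ip, Zfp809, Lum, Dcn and Krt18 were named after their values were seen. In simulated pre-iPSCs against MEFs with 200 changed features, limma on FPKM found 0, 0, 83 and 158 at 2-, 4-, 8- and 32-fold over 12401 genes. For H3K4me3 over 14878 promoters edgeR found 35, 198, 200 and 200, for H3K27me3 over 4439 promoters 13, 196, 200 and 200, and for the exon ratio over 18018 genes limma found 0, 0, 0 and 98. Alternatives were DESeq2 1.42.0, other scalings, filters, pseudocounts and windows, the replicate block, and leaving out each library. The stretch from 250 to 1200 bp upstream was added after the data were seen.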

Additional observations from a re-analysis of the deposited data

How the results depend on the processing

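FPKM do not separate transcripts of the locus from those of a cDNA, RPKM at Pou5f1 do not separate the locus from added copies, and with 2 libraries a group no simulated 4-fold change in RNA was called. That simulation changed 200 of 12401 genes. In the data up to 3206 genes were called in a comparison, and smaller changes passed, such as Klf4 at a log2 change of 1.70 in iPSCs against MEFs. Of the values of single members, 326 kept direction and side of the threshold, 16 reversed, 15 lost and 7 gained a call, and of the counts of members called 132 were kept and 15 moved.

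Leaving out 1 library, the count of members called in expression was 0 to 3 in iPSCs against pre-iPSCs and 2 to 4 in iPSCs against MEFs, the low values without either iPSC library and the 3 without either MEF library, where Sox2 was called too. It was 1 to 2 for H3K4me3 in iPSCs against MEFs (2 without iPSC replicate 2, with Sox2 at 1.53), and 0 to 1 for H3K27me3 in both comparisons with MEFs (1 without MEF replicate 1). For Pou5f1 RNA in iPSCs against pre-iPSCs the range was -2.71 to 0.35, with 0.01 without iPSC replicate 2. For H3K4me3 in pre-iPSCs against MEFs it was -0.25 to 0.68 for Sox2 (-0.13 without MEF replicate 2), -0.95 to 0.03 for Klf4 and -0.17 to 0.00 for Myc, and in iPSCs against MEFs -0.48 to 0.50 for Klf4 (0.02 without iPSC replicate 2). For Pou5f1 H3K27me3 it was -0.51 to 3.46 and -0.71 to 3.25.

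H3K4me3 calls of members went to 0 in both comparisons with MEFs under DESeq2 and in the stretch 250 to 1200 bp upstream, and to 2 in iPSCs against MEFs with 1 kb either side of the TSS. H3K27me3 calls went to 2 in both with 1 kb and to 1 in iPSCs against MEFs with no filter. Reversed H3K4me3 values were -0.26 for Sox2 in pre-iPSCs against MEFs with unique reads, 0.21 (1 kb) and 0.73 (upstream) for Myc there, and 0.08 for Klf4 and 0.62 for Myc (upstream) in iPSCs against MEFs. H3K27me3 of Pou5f1 was -0.58 with 1 kb in iPSCs against MEFs. The cause was not tested.

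Over all promoters, H3K4me3 calls in pre-iPSCs against MEFs and iPSCs against MEFs went from 295 and 927 to 3 and 1 with DESeq2, 676 and 2436 with 1 kb, 202 and 390 with unique reads, 170 and 470 with calls of at least 2 reads, and 0 and 31 upstream. H3K27me3 calls went from 123 and 184 to 0 and 0 with DESeq2, 864 and 1171 with 1 kb, and 12 and 32 with at least 2 reads. Leaving out 1 library, H3K4me3 calls were 25 to 239 and 101 to 777, and H3K27me3 calls 18 to 133 and 24 to 159. Exon-ratio calls over all genes, 0 in each comparison, were 0 to 9, 0 to 29 and 0 to 31 with 1 library left out, none a factor. RNA calls went from 2032, 1069 and 3206 to 1244, 788 and 2371 with no filter. Leaving out 1 library they were 1025 to 2869, 36 to 2133 and 655 to 3691, lowest in the last 2 comparisons without an iPSC library, and the lone library of a group is assumed to vary like the others.

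Correlations of the deviations of same-numbered libraries were -0.205 to 0.346 for RNA, -0.0551 to 0.116 for H3K4me3, -0.0565 to -0.000123 for H3K27me3 and -0.102 to 0.388 for the exon ratio. The 0.346 was between MEFs and pre-iPSCs. The 0.388 was between pre-iPSCs and iPSCs, whose replicates 1 also shared the trend with GC content. The replicate block changed no call of a member, with Pou5f1 H3K4me3 at 2.80 and 2.49, and gave 8, 10 and 9 exon-ratio calls over all genes against 0. RNA was fitted with the block, and without it 1997, 1124 and 3004 genes were called.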
